A study of Mus musculus with 7 samples.

Results

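Libraries of cloned mouse embryos, each made by transfer of a somatic cell nucleus into an oocyte without its own chromosomes, were compared between a high and a low level of Kdm4a mRNA. The groups were chosen by the measured Kdm4a level and not by a label: 4 of the 7 libraries had a Kdm4a level of at least 1500 FPKM (fragments scaled by transcript length in kilobases and by 1000000 fragments mapped), and 3 had less. The high libraries were FOC+K replicate 1, CROC+K replicates 2 and 3 and CROC+K+M replicate 1, and the low libraries were FOC+K replicate 2, CROC+K replicate 1 and CROC+K+M replicate 2. Each labelled group therefore had at least 1 library on either side. All embryos were wild type, of the strain B6D2F1 and labelled as 2-cell embryos, and all had received Kdm4a mRNA by injection and the nucleus of a cumulus cell, one of the follicle cells around the oocyte. The recipient oocytes were fresh in FOC+K and had been vitrified and warmed in CROC+K and CROC+K+M. Embryos of CROC+K+M were exposed to 10 µM melatonin, and a vehicle is named for the series but not for single samples. Each library came from a pool of 50 to 100 embryos, so a value is an average over embryos that may have received unequal amounts of the mRNA. No library without injected Kdm4a mRNA was analysed here, and the table gives 1 value per gene, so injected mRNA and the embryos' own Kdm4a mRNA cannot be told apart.

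Kdm4a encodes a histone demethylase that removes methyl groups from lysine 9 of histone H3, a mark of closed chromatin that the nucleus of a somatic cell carries into the oocyte. In mouse embryos the major wave of zygotic genome activation takes place at the 2-cell stage, and a set of genes is on only around that time. Many of them belong to tandem families, such as Zscan4, Usp17l and Tdpoz, whose members are nearly identical in sequence.

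The Kdm4a level was 2014 FPKM in FOC+K replicate 1, 4051 and 4949 in CROC+K replicates 2 and 3, and 2797 in CROC+K+M replicate 1. It was 816 in FOC+K replicate 2, 497 in CROC+K replicate 1 and 689 in CROC+K+M replicate 2. These values chose the groups and are given without a test. The values nearest the threshold were 2014 and 816 FPKM, and the whole range spanned 9.95-fold. In what follows, values of single libraries are given in that same order, the 4 high libraries first.

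CROC+K+M replicate 1 stood apart from the other libraries. Its log2(FPKM + 1) values correlated with those of the others at 0.850 to 0.875 across genes, against 0.908 to 0.974 among the others. Its 30 trophectoderm and epithelial markers summed to 28193 FPKM, against 116 to 229 in the other 6 libraries, and its 23 inner cell mass and pluripotency markers summed to 20005, against 639 to 1545. Cdx2, a transcription factor that defines trophectoderm, was at 6.97 FPKM there and listed at 0 in all other libraries. Krt8, a keratin of simple epithelia, was at 300.2 FPKM there and at 2.94 or less elsewhere. Trophectoderm is a lineage of the blastocyst, a stage the series' treatment protocol also names. Medians of gene lists and calls are therefore given with and without this library. Leaving it out reversed the sign of 0 of the 88 genes that the naming rule takes. Those genes were picked by p or by direction in these same libraries, so a kept sign was largely built in. Cumulus cell markers summed to between 40.6 and 98.1 FPKM, and Ptx3, a matrix gene of expanded cumulus, was listed at 0 in all 7 libraries. In pools of embryos, fewer cells of a type and less RNA per cell cannot be told apart.

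Between 10496 and 11518 genes per library had an FPKM of at least 1, and FPKM summed to between 552360 and 1018000. Relative depth was estimated from the most frequent ratio of low values to those of FOC+K replicate 1, which was set to 1. It was 1 to 1.26 in the high libraries and 1.16 to 1.55 in the low ones. In the other libraries only 29.6% to 41% of the low genes lay at that ratio. The scaling between libraries is not given, so the estimate is rough and may mix depth with scaling. The ribosomal RNA precursor Rn45s was at 1183, 266, 237 and 224 FPKM in the high libraries and at 1047, 2114 and 175 in the low ones. Within CROC+K it set replicate 1 apart from replicates 2 and 3, as the Kdm4a level did, but in the opposite direction. Its values differed less within FOC+K and within CROC+K+M, so the splits by Rn45s and by Kdm4a agreed only in part. The part of depth and of Rn45s in the differences was not tested beyond a fit with the Rn45s split as a term. In that limma fit 801 genes had an unadjusted p under 0.05, against 1286 without the term.

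No gene passed the adjusted threshold in the comparison of the high with the low libraries. Of 12273 genes tested with limma, 0 (0%) had an adjusted p under 0.05, and the smallest adjusted p was 0.0567, for Nudt22. At an unadjusted p under 0.05, 564 genes (4.6%) were higher and 722 (5.88%) were lower in the high libraries. In 589 genes (4.8%) every high library was above every low one, and in 715 (5.83%) every high library was below. Without CROC+K+M replicate 1, 22 genes (0.179%) passed, 15 of them higher (0.122%) and 7 lower (0.057%). Without FOC+K replicate 1, 2 genes passed. With the labelled group as a term, 0 genes passed and the smallest adjusted p was 0.291, while 1287 had an unadjusted p under 0.05. Since 0 genes passed with all libraries, the differences below are given as measured values, with the limma adjusted p where it bears on the call.

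Transient 2-cell stage genes were at higher levels in the high libraries almost throughout. Of 72 symbols listed, 56 were in the table and 47 were tested; 8 of the other 9 were listed at 0 in every library, and the highest value among the 9 was 0.797 FPKM. Of the 47, 46 were higher and 1 was lower, with a median log2 difference of 1.62, against a median of 0.01 over all genes tested. In 29 of the 47 the libraries did not overlap, all higher, beside 4.8% of all genes, and 34 had an unadjusted p under 0.05, all higher, beside 4.6% of all genes. A gene passed the filter on low values if 2 libraries reached it, so a member that is high in the high libraries only could pass through them. Leaving out CROC+K+M replicate 1 gave a median of 1.77, with 46 of 47 again higher and 8 past the adjusted threshold. The list's median deviation from the members' means over all libraries was 0.40, 0.95, 1.44 and 0.16 in the high libraries and -0.82, -1.22 and -0.79 in the low ones. The library that stood apart was thus the lowest of the high ones, and still above each low library. The list was drawn up with earlier results of these data known.

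**Figure D1:**
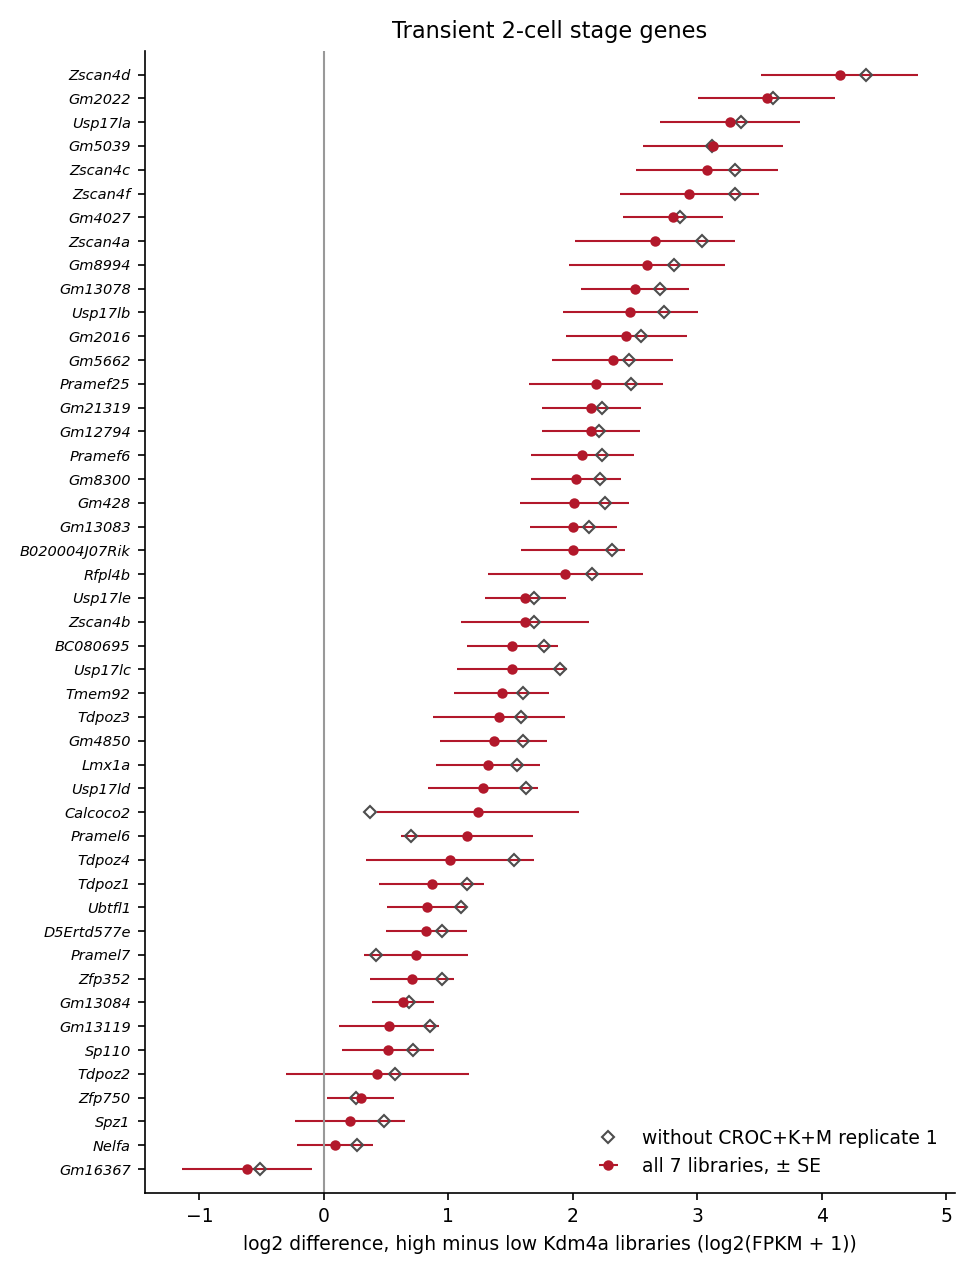
Log2 difference, high minus low Kdm4a libraries, of the 47 transient 2-cell stage genes tested (4 against 3 libraries, on the log2(FPKM + 1) scale). Red points with bars are the difference with its standard error over all 7 libraries, and open diamonds the difference without CROC+K+M replicate 1; 46 of the 47 red points lie to the right of 0, and Gm16367 lies to the left.

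The Zscan4 genes code for zinc finger proteins with a SCAN domain, which mark the 2-cell stage and are linked to telomere maintenance in embryonic stem cells. Zscan4d was at 86.9, 257, 332 and 107 FPKM in the high libraries and at 7.56, 3.44 and 21.9 in the low ones. The lowest high library was FOC+K replicate 1 and the highest low one CROC+K+M replicate 2, and the groups did not overlap. The log2 difference was 4.15 ± 0.63 (SE, 4 against 3 libraries), at a limma adjusted p of 0.178, and 4.36 at an adjusted p of 0.0342 without CROC+K+M replicate 1. Zscan4c was at 15.1, 39.3, 87.6 and 19.9 FPKM against 4.31, 1.49 and 3.52, again without overlap, and its log2 difference was 3.08 ± 0.57 (adjusted p = 0.179). All 5 Zscan4 genes tested were higher, without overlap, by 1.62 to 4.15 on the log2 scale. Cufflinks, which the submitters' notes name, assigns fragments that fit several near-copies by a statistical model, so the split of a value between members of one family is uncertain.

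Of the 47 genes, 22 had an entry in RefSeq's promoter table (build GRCm38.p6, 250 bases before the start), and 4 of the 7 that hold a TATA box sequence are shown, to set 3 near-copies of one family beside a member of another. Usp17la and Gm4027, which differed more between the groups than Usp17lb, have entries without that sequence. Each is written 5′ to 3′ on the strand of its gene, with a TATA box sequence, TATAAAA, in capitals. They lie at chr7:11005495-11005744 (plus strand, Zscan4c), chr7:11166149-11166398 (minus strand, Zscan4d), chr7:11397665-11397914 (plus strand, Zscan4f) and chr7:104842584-104842833 (minus strand, Usp17lb). The authors' build was mm9, so these positions are RefSeq's and not those of the deposited table.
Zscan4c: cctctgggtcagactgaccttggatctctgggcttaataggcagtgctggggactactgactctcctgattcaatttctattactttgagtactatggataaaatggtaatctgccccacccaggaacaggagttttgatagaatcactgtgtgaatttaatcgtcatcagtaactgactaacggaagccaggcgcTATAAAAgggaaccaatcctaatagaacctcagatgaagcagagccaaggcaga
Zscan4d: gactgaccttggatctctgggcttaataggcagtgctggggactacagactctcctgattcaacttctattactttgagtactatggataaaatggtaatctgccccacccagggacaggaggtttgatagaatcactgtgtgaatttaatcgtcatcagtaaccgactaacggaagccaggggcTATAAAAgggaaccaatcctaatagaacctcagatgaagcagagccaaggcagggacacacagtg
Zscan4f: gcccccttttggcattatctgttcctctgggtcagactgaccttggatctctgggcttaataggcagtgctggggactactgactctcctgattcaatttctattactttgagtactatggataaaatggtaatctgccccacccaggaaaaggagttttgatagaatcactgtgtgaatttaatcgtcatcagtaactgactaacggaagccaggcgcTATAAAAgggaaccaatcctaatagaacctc
Usp17lb: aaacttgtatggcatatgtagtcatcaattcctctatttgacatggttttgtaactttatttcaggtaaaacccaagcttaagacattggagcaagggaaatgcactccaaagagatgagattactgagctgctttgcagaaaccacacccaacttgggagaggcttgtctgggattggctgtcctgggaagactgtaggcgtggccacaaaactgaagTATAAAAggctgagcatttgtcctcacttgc
The capitals begin 54, 65, 31 and 31 bases before the annotated start in these 4 genes. Aligned on them, the Zscan4c and Zscan4d promoters were identical at 232 of 239 positions (97.1%) and those of Zscan4c and Zscan4f at 226 of 227 (99.6%), while Usp17lb matched the Zscan4 promoters at 26.9% to 29.2% of positions. TATAAAA was found on either strand in 7 of the 22 promoters, those of 4 Zscan4 and 3 Usp17l genes, against 5.85% of 27025 promoters of the same length. The 7 come from 2 families of near-copies and are not independent. The shorter TATAAA, which lies within TATAAAA, was in 8 of 22 (14.3% of all), CCAAT in 12 (37.5%) and GGATTA in 6 (7.21%). TGCACAC was in 0 of 22 and in 4.19% of all. These 5 motifs were searched, and a match is a description of letters in this window.

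Usp17l genes, which code for deubiquitinating enzymes, were likewise at higher levels in the high libraries. Usp17la was at 4.76, 19.2, 33.5 and 11.3 FPKM in the high libraries and at 0.916, 0.0844 and 0.811 in the low ones, a log2 difference of 3.26 ± 0.56 (adjusted p = 0.178). Usp17lb, whose promoter is shown above, was at 135, 278, 439 and 118 FPKM against 32.6, 21.4 and 73.9. For both genes CROC+K replicate 3 was highest, CROC+K replicate 1 was lowest and the groups did not overlap. All 5 Usp17l genes tested were higher, 4 of them without overlap, by 1.28 to 3.26.

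Several other members of the list are predicted genes or belong to the PRAME family. Gm2022 was at 28.5, 132, 181 and 76.6 FPKM against 7.07, 5.31 and 6.72, a log2 difference of 3.56 ± 0.55 (adjusted p = 0.178; 0.0445 without CROC+K+M replicate 1). Gm4027 was at 20.5, 46.8, 53.9 and 31.7 FPKM against 4.72, 6.67 and 2.35, a log2 difference of 2.80 ± 0.40 (adjusted p = 0.178; 0.0342 without that library). In both genes every high library was at least at 20.5 FPKM and every low one at most at 7.07. Pramef6, of the PRAME family that is active in germ cells and early embryos, was at 5.64, 14, 16.8 and 6.8 FPKM against 1.58, 2.37 and 0.935.

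The list was not uniform. Sp110, a nuclear body protein, was at 575, 491, 616 and 319 FPKM against 335, 215 and 540, with overlapping groups. Zfp352, a zinc finger gene, was at 161, 128, 200 and 82.5 FPKM against 108, 80.4 and 64.7, and here CROC+K+M replicate 1 lay below the highest low library. The 4 Tdpoz genes, which code for proteins with TRAF and POZ domains, were higher by 0.43 to 1.41, and 1 of them did not overlap. Nelfa, a subunit of the negative elongation factor, was at 33.2, 19, 21.2 and 14.2 FPKM against 22.2, 20.3 and 16.8, a log2 difference of 0.09. With FPKM scaled to equal sums that difference was -0.25, near the median of all genes on that scale, -0.28. Dux, a transcription factor gene that acts upstream of many 2-cell genes, was listed at 0 in all 7 libraries.

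Obox genes code for homeobox proteins of oocytes and early embryos. All 7 genes of that list, the 6 Obox genes and Crxos, were higher, with a median of 0.68 (0.73 without CROC+K+M replicate 1), which was 0.32 with FPKM scaled to equal sums and 0.24 with quantile normalization. Only Obox3 did not overlap. Obox3 was at 170, 279, 392 and 128 FPKM against 34.2, 11.6 and 84.1, a log2 difference of 2.72 ± 0.62 (limma adjusted p = 0.240). Crxos, a homeobox gene, was at 713, 1741, 1637 and 10546 FPKM against 267, 197 and 932. Its largest value came from CROC+K+M replicate 1, and its difference of 2.55 became 1.79 without that library. Maternal oocyte transcripts, which are loaded into the egg and then cleared, had 47 of 68 members higher and a median of 0.20 (0.25 without CROC+K+M replicate 1). With FPKM scaled to equal sums that median was -0.14, or 0.14 above that of all genes, which moved to -0.28. Slbp, the stem-loop binding protein of histone mRNA, was at 274, 672, 737 and 505 FPKM against 216, 247 and 316, with overlap.

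Among genes outside the 2-cell list, Nudt22 had the smallest p. It codes for a Nudix hydrolase and was at 26.7, 41.6, 42.1 and 36.1 FPKM in the high libraries and at 4.38, 2.00 and 4.80 in the low ones. The 4 high values lay close together and more than 5 times above each low one. The log2 difference was 3.03 ± 0.31 (adjusted p = 0.0567; 0.0309 without CROC+K+M replicate 1). Ddit4l, an inhibitor of mTOR signalling, was at 42.6, 74.9, 117 and 51.0 FPKM against 11.1, 6.65 and 13.7, a log2 difference of 2.60 ± 0.39 (adjusted p = 0.178; 0.0342 without that library). Cd52, a small glycoprotein known from lymphocytes and sperm, was at 18.1, 18.6, 23.3 and 17.9 FPKM against 4.56, 5.48 and 2.70 (adjusted p = 0.178; 0.0342 without that library). Each of these genes kept the groups apart.

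Hspb1, a small heat shock protein that also counts among the anti-apoptotic genes, was at 109, 111, 178 and 144 FPKM against 50.6, 30.7 and 30.6, a log2 difference of 1.84 ± 0.28 (adjusted p = 0.178; 0.0445 without CROC+K+M replicate 1). Pex16, needed to build peroxisome membranes, was at 30.5, 56.0, 60.2 and 50.3 FPKM against 13.3, 11.9 and 15.7, a log2 difference of 1.74 ± 0.28. Ajap1, a protein of adherens junctions, was higher by 2.17 ± 0.36, and Olfr376, an olfactory receptor gene, by 3.05 ± 0.55. None of these overlapped between the groups. The adjusted p of the 10 higher genes with the smallest p lay between 0.0567 and 0.179 in limma.

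The genes with the smallest p among those lower in the high libraries were of mixed function and mostly at low levels. Ankrd37, an ankyrin repeat gene induced by hypoxia, was the most abundant of the 10 and was at 46.2, 33.8, 23.9 and 25.8 FPKM in the high libraries and at 96.8, 171 and 104 in the low ones. Its log2 difference was -1.90 ± 0.31 (limma adjusted p = 0.178). Every high library was below 50 FPKM and every low one above 90. The gene overlaps Ufsp2 in the annotation, and whether the authors' values use the strand is not given in the sources used here. Meig1, which is needed for sperm formation, was at 2.64, 1.17, 0 and 0 FPKM against 7.67, 27.6 and 25.5, and was listed at 0 in CROC+K replicate 3 and CROC+K+M replicate 1. Bcdin3d, an RNA methyltransferase, was at 4.99, 2.30, 1.23 and 4.32 FPKM against 13.6, 21.0 and 18.7, a log2 difference of -2.24 ± 0.38 (adjusted p = 0.178; 0.0445 without CROC+K+M replicate 1).

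Nefl, the light neurofilament chain, was at 3.80, 1.16, 0.741 and 0.626 FPKM against 12.9, 20.1 and 9.36. Fkbp7, a protein folding enzyme of the endoplasmic reticulum, was at 2.28, 3.46, 2.16 and 1.04 FPKM against 11.6, 11.1 and 8.39. Car6, a secreted carbonic anhydrase, had a log2 difference of -1.86, the mitochondrial enzyme genes Fdxr and Lipt2 of -1.78 each, the splicing factor gene Ccdc94 of -1.59, and Fancf, of the Fanconi anaemia repair complex, of -1.72. Fancf was at 0.316 FPKM or listed at 0 in the high libraries and at 1.65 to 3.25 in the low ones, and it overlaps Gas2. All 10 kept the groups apart, and their adjusted p lay between 0.178 and 0.196. No member of the 2-cell list was among the 43 genes that were lower by 1 or more within every labelled group. Those were 0.35% of all genes, a share at which a list of that size would hold few or none.

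**Figure D2:**
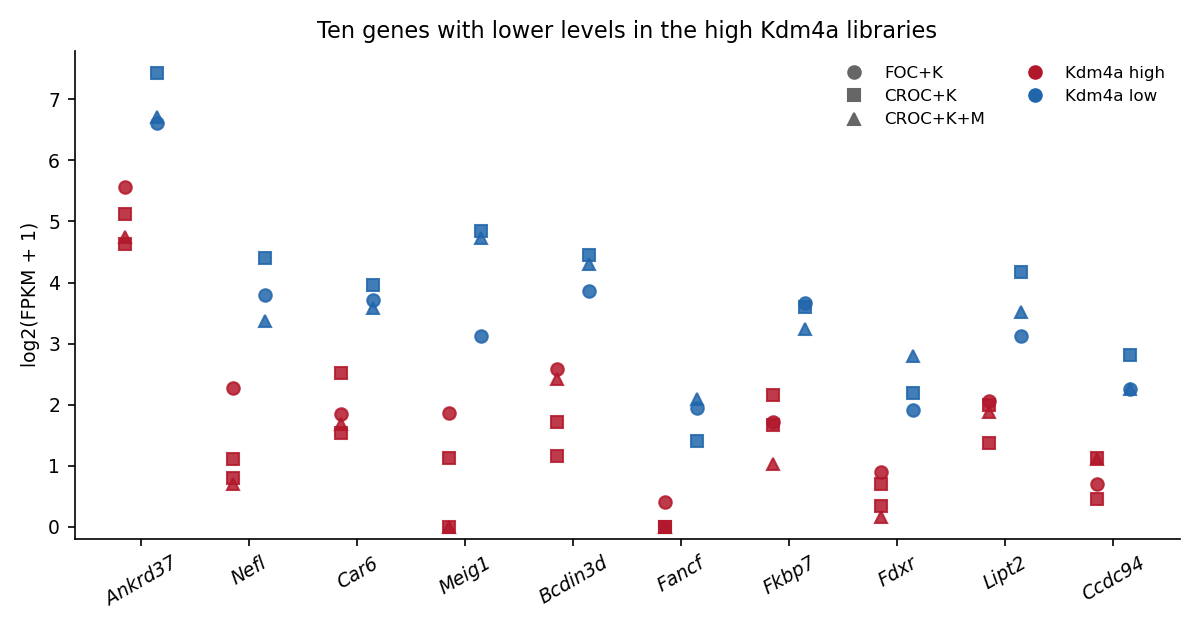
Level of 10 genes, as log2(FPKM + 1) on the vertical axis, in each of the 7 libraries: red marks are the 4 high Kdm4a libraries, blue marks the 3 low ones, and the shape gives the labelled group. In each gene the red marks lie below the blue ones, and Meig1 and Fancf reach 0 in red libraries.

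A fit on the Kdm4a level as a continuous term, in place of the split, used the order within the groups as well. In that limma fit 84 genes (0.684%) passed an adjusted p of 0.05; 40 (0.326%) rose with the Kdm4a level and 44 (0.359%) fell. Of the 84 genes, 83 kept the high and low libraries apart, and 13 passed the split without CROC+K+M replicate 1. The level and the split come from the same Kdm4a values in the same libraries, so this overlap is no separate support. Transient 2-cell genes were 22 of the 40 that rose and 0 of the 44 that fell. At 0.359% of all genes, a list of that size would hold few or none of those that fell. Per doubling of Kdm4a, Usp17la rose by 1.45 ± 0.11 (adjusted p = 0.00212), Zscan4c by 1.38 ± 0.11 (adjusted p = 0.00225), Zscan4d by 1.77 ± 0.17 (adjusted p = 0.0058) and Ddit4l by 1.12 ± 0.09 (adjusted p = 0.00225) on the log2 scale. The count moved with single libraries: it was 40 without FOC+K replicate 1, 14 without FOC+K replicate 2, 10, 5 and 6 without CROC+K replicates 1, 2 and 3, 785 without CROC+K+M replicate 1 and 58 without CROC+K+M replicate 2. The 785 (6.4%) held all 84 genes and split into 261 higher (2.13%) and 524 lower (4.27%), and the 32 of them in the 2-cell list were all higher. Only 5 genes passed in all 7 of these fits, namely Usp17la, Zscan4c, Gm2022, Ddit4l and BB287469, an unnamed clone; Nudt22 passed in 5 and Zscan4d in 4.

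Among the 44 genes that fell with the Kdm4a level, Bcdin3d fell by 0.97 per doubling (limma adjusted p = 0.0058) and Ankrd37 by 0.80 (adjusted p = 0.0133). Cdca2, which binds a protein phosphatase at mitotic exit, fell by 0.82 and Rab29, a small GTPase, by 0.76; these 2 are named for their adjusted p of 0.0133 and 0.0194, after their values were seen. Gar1, a protein of small nucleolar RNA complexes, fell by 0.73 (adjusted p = 0.0366). It was at 38.6, 20.3, 11.3 and 15.9 FPKM in the high libraries and at 52.0, 64.0 and 72.4 in the low ones. In the level fit, 1 gene fell when FOC+K replicate 2 was left out and 0 when any 1 of the CROC+K replicates was, so the calls in this direction rested on those libraries.

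**Figure D3:**
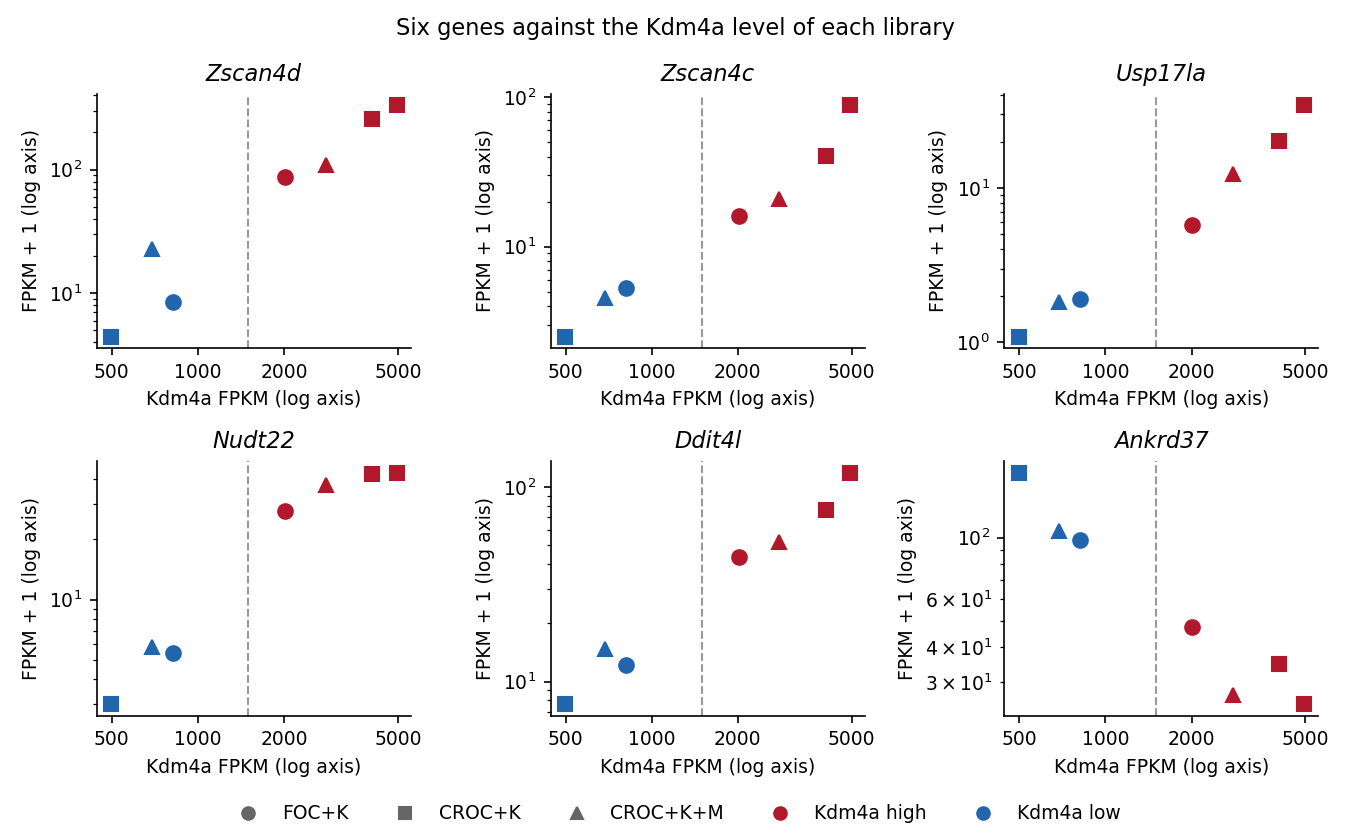
FPKM + 1 of 6 genes (vertical, log axis) against the Kdm4a level of the library in FPKM (horizontal, log axis). Each point is 1 library, red at or above and blue below the dashed line at 1500 FPKM, with the shape giving the labelled group; all red points lie above all blue ones in 5 genes and below them in Ankrd37.

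Differences were also taken within each labelled group, where the treatment was the same on both sides. In FOC+K and CROC+K+M this set 1 library against 1, and in CROC+K the mean of 2 libraries against 1, so there is no test. The high library of CROC+K+M was the one that stood apart, with high trophectoderm markers, so that pair differed in more than the Kdm4a level. In all 3 groups, 46 genes (0.375%) were higher by 1 or more on the log2 scale and 43 (0.35%) were lower. At any size, 1878 (15.3%) were higher and 1911 (15.6%) were lower in all 3. The 2-cell list made up 17 of the 46 and 0 of the 43, and 36 of its 47 members were higher in all 3 groups at any size. At 0.35% of all genes, few or none of 47 members would be among the 43 in any case. Its median difference was 1.31 in FOC+K, 2.39 in CROC+K and 0.94 in CROC+K+M, against -0.02, -0.04 and 0.03 over all genes. The Kdm4a gap was wider in CROC+K+M than in FOC+K, while the median was smaller there, so the medians did not follow the order of the gaps.

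The 5 higher genes with the largest smallest difference were Nudt22, Olfr376, Zscan4d, Ddit4l and Cd52. Nudt22 differed by 2.36 in FOC+K, 3.84 in CROC+K and 2.68 in CROC+K+M, and Zscan4d by 3.36, 6.05 and 2.24. On the lower side they were Car6, Fkbp7, Cxcl10, Nefl and Cxcl1. Car6 differed by -1.87, -1.94 and -1.90 in the 3 groups, nearly the same in each. Cxcl10, a chemokine induced by interferon, was at 9.48, 2.04, 10.2 and 4.08 FPKM in the high libraries and at 31.5, 35.9 and 14.8 in the low ones. It overlaps Art3 in the annotation. Cxcl1, another chemokine, was at 0.270 FPKM in CROC+K replicate 2 and listed at 0 in the other high libraries. In the low ones it was at 1.77, 5.32 and 1.77.

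**Figure D4:**
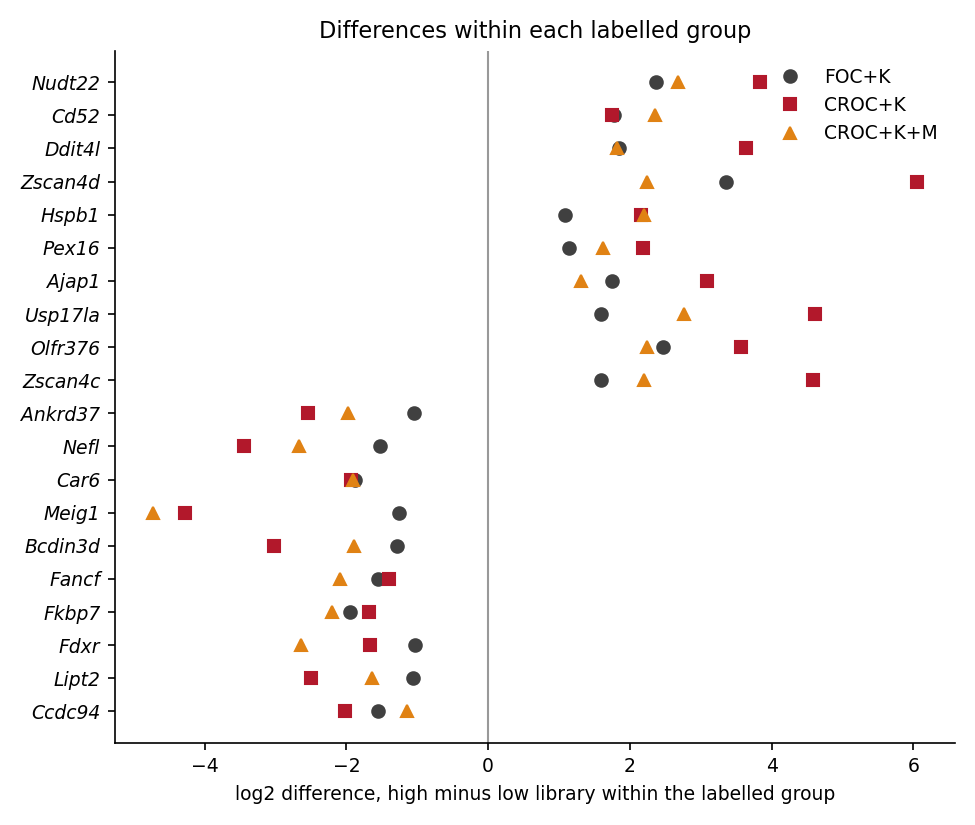
Log2 difference, high minus low Kdm4a library within each labelled group (horizontal), for the 10 higher and 10 lower genes with the smallest p in the comparison of the 7 libraries. Circles are FOC+K, squares CROC+K and triangles CROC+K+M; for each gene all 3 marks lie on the same side of 0.

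Genes for enzymes of the Kdm4a mark and of DNA methylation were near the level of all genes. Of 22 genes for H3K9 methyltransferases and heterochromatin proteins, 12 were higher and 10 lower, with a median of 0.06 (0.10 without CROC+K+M replicate 1). With equal sums that median was -0.29, beside -0.28 over all genes. Setdb1, a methyltransferase of that mark, was at 6.28, 14.9, 11.2 and 8.83 FPKM against 5.39, 4.24 and 5.99, a log2 difference of 0.82 ± 0.32 (limma adjusted p = 0.410); it overlaps Cers2. Cbx1, a heterochromatin protein that binds the mark, was at 66.0, 85.4, 97.0 and 80.8 FPKM against 56.6, 53.9 and 62.9. Fam208a, also of this list, went the other way, at 6.94, 4.83, 3.58 and 7.42 FPKM against 9.04, 8.02 and 11.1. Its log2 difference was -0.67 ± 0.30. None of these genes overlapped between the groups, and none passed the threshold. Of the 22 genes, 2 were higher and 1 was lower without overlap, beside 4.8% and 5.83% of all genes.

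Of 11 other H3K9 demethylase genes, 4 were higher and 7 lower, with a median of -0.07 (-0.03 without CROC+K+M replicate 1). Kdm4b, a close relative of Kdm4a, was at 1.03, 0.574, 1.12 and 1.34 FPKM against 1.81, 1.56 and 1.71. It was lower without overlap, but at values near the filter of 1 FPKM. Of the 11 genes, 1 was lower and 0 were higher without overlap, beside 5.83% and 4.8% of all genes. Kdm4c was at 10.5, 10.2, 5.6 and 3.14 FPKM against 8.64, 9.97 and 15.7, with overlap and a log2 difference of -0.65 ± 0.41 (-0.35 without CROC+K+M replicate 1). The highest value of either gene was below 16 FPKM, against at least 497 FPKM for Kdm4a. Of 12 genes for DNA methylation, 5 were higher and 7 lower, with a median of -0.11 (-0.04 without that library). Uhrf2, which binds methylated DNA, was at 8.31, 4.22, 5.25 and 6.77 FPKM against 11.0, 17.2 and 16.2, a log2 difference of -1.16 ± 0.30 (adjusted p = 0.253).

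Cytosolic ribosomal protein genes were higher as a group by a smaller amount. Of 80 tested, 75 were higher and 5 lower, with a median of 0.65, and 17 kept the groups apart, all higher, beside 4.8% of all genes. Leaving out CROC+K+M replicate 1 gave a median of 0.36 with 65 higher. Rpl23 was at 264, 430, 370 and 622 FPKM against 158, 138 and 215, and Rpl4 at 269, 382, 403 and 612 FPKM against 159, 198 and 188. In both, CROC+K+M replicate 1 was highest. The adjusted p was 0.253 for Rpl23 and 0.261 for Rpl4 in limma, and 0 of the 80 passed. Within the labelled groups 63 of the 80 were higher in all 3, beside 15.3% of all genes. FPKM sums were 585040, 797690, 814960 and 1018000 in the high libraries and 552360, 575460 and 726300 in the low ones. Scaling the libraries to equal sums moved the median of all genes to -0.28, and the ribosomal protein median was then 0.30, or 0.57 above that of all genes. Quantile normalization gave 0.21, or 0.22 above all genes, against 0.64 above all genes without rescaling. The 2-cell median was 1.40 on that scale, or 1.68 above that of all genes, and 1.67 above them with quantile normalization.

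Genes for the assembly of ribosomes were close to all genes. Of 62 ribosome biogenesis and nucleolar genes, 30 were higher and 32 lower, with a median of -0.03 (0.04 without CROC+K+M replicate 1). Of the 62, 4 were higher and 2 were lower without overlap, beside 4.8% and 5.83% of all genes. Gar1, whose values are given above, was among the 2, with a log2 difference of -1.63. Polr1c and Polr1d, subunits that RNA polymerases I and III share, were among the 4. Polr1c was at 137, 138, 180 and 90.9 FPKM against 51.2, 42.5 and 73.4, a log2 difference of 1.27 ± 0.30 (adjusted p = 0.240). Of 39 translation initiation factor genes, 27 were higher, with a median of 0.20 (0.13 without that library). With equal sums that median was -0.14, or 0.14 above that of all genes.

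In other lists the median moved with the library that stood apart. Of 77 oxidative phosphorylation genes 55 were higher, with a median of 0.37, but leaving out CROC+K+M replicate 1 gave a median of -0.31 with 20 higher. Within the groups their median was -0.16 in FOC+K, -0.06 in CROC+K and 2.27 in CROC+K+M. Atp5b, a subunit of ATP synthase, was higher in each pair, at 182, 305, 429 and 462 FPKM against 131, 150 and 157. Ndufs6 of the same list was at 44.5, 35.1, 37.8 and 1283 FPKM against 125, 178 and 142. Without CROC+K+M replicate 1 its log2 difference was -1.89 (limma adjusted p = 0.0342). It was the only 1 of the 77 to pass in that fit, where 57 were lower. Proteasome subunits had a median of 0.02 and of -0.36 without that library. Trophectoderm and epithelial markers had a median of 0.79 and of 0.18 without it, and inner cell mass and pluripotency markers of 0.10 and -0.08. Without that library, 12 of 19 trophectoderm members were higher and 7 lower, and 7 of 18 inner cell mass members were higher and 11 lower. In each of these lists 2 members kept the groups apart over all libraries, beside 4.8% of all genes on the higher side. Gata3, a trophectoderm transcription factor, was at 8.39, 14.7, 14.7 and 38.0 FPKM against 4.82, 4.75 and 3.51, without overlap also among the libraries that lacked Cdx2. Dppa2, a pluripotency factor that is also expressed in early embryos, was at 137, 143, 164 and 108 FPKM against 85.2, 53.5 and 78.4, again without overlap.

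Stress and cell death genes showed no common direction. Of 34 pro-apoptotic genes 20 were higher and 14 lower (median 0.18, 0.10 without CROC+K+M replicate 1, and -0.17 with equal sums). Of 26 anti-apoptotic genes 16 were higher and 10 lower (median 0.16, 0.12 and -0.17 in the same order). With equal sums the median of all genes was -0.28. Casp2, an initiator caspase, was at 5.53, 3.09, 1.69 and 2.91 FPKM against 7.66, 8.86 and 7.56, a log2 difference of -1.14 ± 0.33 (limma adjusted p = 0.305). Bax, a pore-forming death protein, was at 21, 15, 23.8 and 103 FPKM against 13.3, 13.0 and 11.8, and its difference of 1.18 became 0.59 without CROC+K+M replicate 1. Of 27 p53 target genes 16 were higher and 11 lower (median 0.11, 0.18 and -0.24). Sesn1, a stress-induced p53 target, was at 5.13, 1.27, 3.61 and 3.14 FPKM against 10.9, 20.3 and 5.13, a log2 difference of -1.52 ± 0.48 (adjusted p = 0.325).

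Of 48 antioxidant genes 31 were higher and 17 lower, with a median of 0.13 that became -0.10 without CROC+K+M replicate 1. Prdx5, a peroxide-reducing enzyme, was at 160, 319, 356 and 418 FPKM against 91.2, 82.5 and 123, a log2 difference of 1.59 ± 0.35 (limma adjusted p = 0.234), and rose with the Kdm4a level (adjusted p = 0.0493). It overlaps Trmt112. Gstm1, a glutathione transferase, went the other way, at 120, 46.4, 59.0 and 18.5 FPKM against 296, 435 and 147, a log2 difference of -2.40 ± 0.59 (adjusted p = 0.243). Of 38 heat shock and chaperone genes 23 were higher, 8 of them without overlap beside 4.8% of all genes, and 15 were lower (median 0.13, 0.08 without that library, and -0.20 with equal sums). Hspa8, the constitutive Hsp70 chaperone, was at 137, 286, 348 and 550 FPKM against 70.9, 92.9 and 90.0, a log2 difference of 1.80 ± 0.42 (adjusted p = 0.240).

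The remaining lists had medians close to 0. Of 42 cell cycle genes 20 were higher and 22 lower (median -0.03, and 0.09 without CROC+K+M replicate 1). Ccne2, a cyclin of the start of S phase, was at 69.6, 163, 109 and 61.9 FPKM against 30.4, 41.4 and 34.9, a log2 difference of 1.38 ± 0.35 (limma adjusted p = 0.251). Bub1b, a spindle checkpoint kinase, was at 8.62, 8.25, 6.87 and 7.94 FPKM against 13.4, 15.2 and 15.2, a log2 difference of -0.81 ± 0.23 (adjusted p = 0.283). Of 19 interferon and RNA sensing genes 8 were higher and 11 lower (median -0.16, and -0.06 without it). Of 11 cumulus cell donor markers 5 were higher and 6 lower (median -0.07, and -0.11 without it). Serpine2, a protease inhibitor, was at 48.4, 45.0, 45.1 and 53.1 FPKM against 28.7, 20.5 and 12.5. Vim, an intermediate filament protein, was at 2.31, 3.43, 4.48 and 2.18 against 5.45, 6.15 and 7.79. The 58 splicing genes had a median of 0.09 (-0.03 without it) and the 54 mRNA storage and clearance genes of 0.02 (-0.04).

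**Figure D5:**
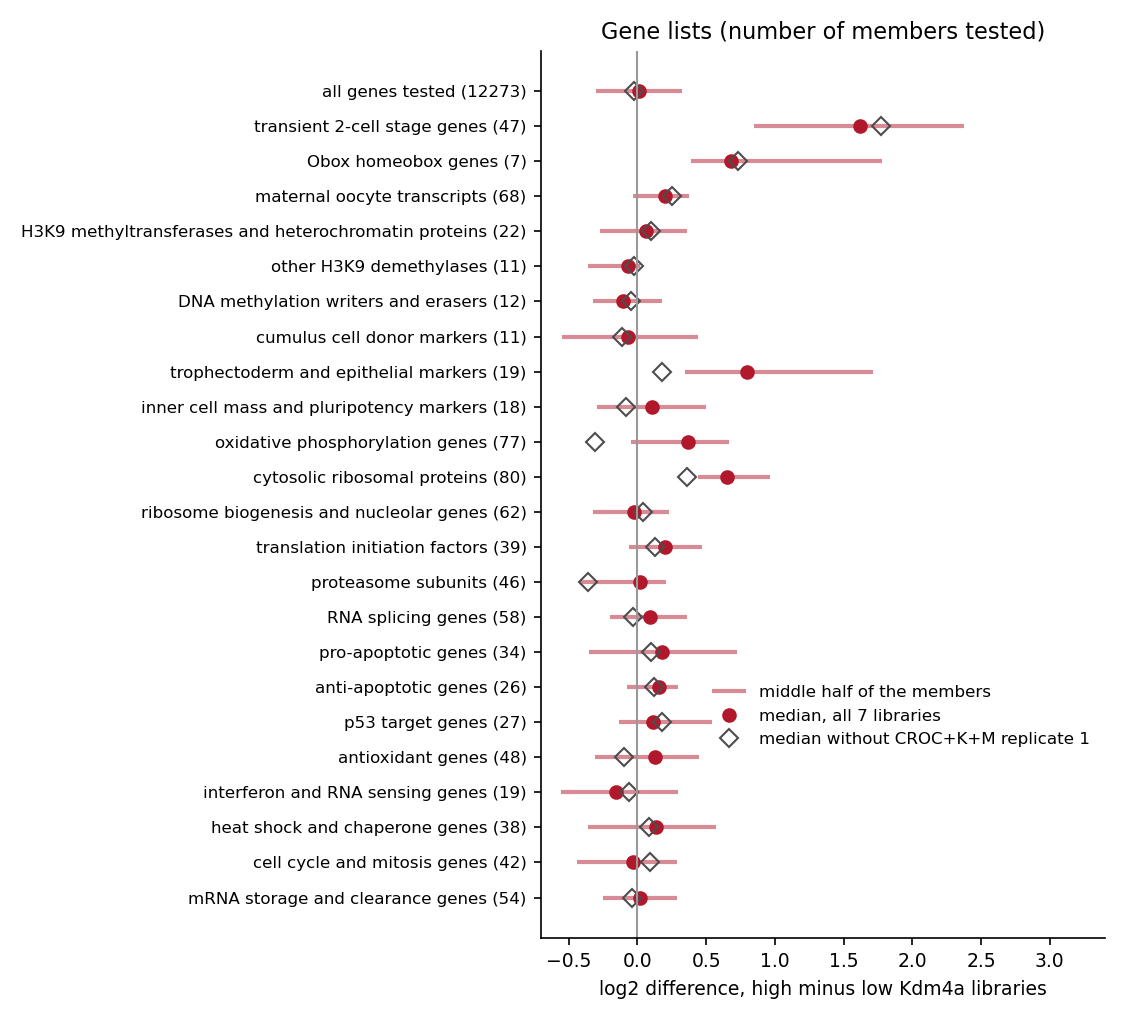
Median log2 difference, high minus low Kdm4a libraries, of all genes tested and of each gene list, with the number of members tested in brackets. Red points are medians over all 7 libraries with a bar for the middle 50% of the members, and open diamonds are medians without CROC+K+M replicate 1; the medians of the 2-cell genes lie at 1.62 and 1.77, and the oxidative phosphorylation list moves from 0.37 to -0.31.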

How the data were processed

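RNA of 7 libraries of nuclear transfer embryos was sequenced after SMARTer cDNA synthesis and ScriptSeq v2 library preparation, per the labels' protocols, which ask for an RNA integrity number above 7.0. The deposited table holds 1 FPKM value per gene and library for 24319 rows. Per the submitters' processing notes, the authors used the build mm9, Cuffnorm, Cufflinks 2.2.1, STAR 2.5.2b and R 3.3.2, in an order the notes do not state. Annotation, scaling between libraries and read depth: not given in the sources used here.

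Values were used as deposited, as log2(FPKM + 1), a scale that understates changes of low genes. Genes with an FPKM of at least 1 in 2 or more libraries were tested, without Kdm4a and without 1270 rows for ribosomal RNA precursors and small RNA genes. The high and low libraries were compared with limma 3.58.1 with an intensity trend in R 4.3.3 (5 residual degrees of freedom), two-sided, with Benjamini-Hochberg adjustment over all 12273 genes and a threshold of 0.05. Python 3.11.15, pandas 2.3.3 and matplotlib 3.10.9 were used for sequences and figures, and the fit was tested on simulated data. P-values measure the spread between these libraries, which the labels call biological replicates. Alternatives changed the term in the fit, the pseudocount, the filter, the scaling, the library weights and the libraries used. Replicate numbers were not used as a pairing in the main comparison.

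The comparison, its groups and the 23 gene lists (983 symbols, 956 in the table, 858 tested) were chosen with earlier results of these data known. Named genes are Kdm4a, the 10 higher and 10 lower genes with the smallest p, up to 3 members of each list by smallest p, and the 5 genes per direction with the largest smallest difference over the 3 labelled groups. Clone names were left out except among list members, and genes with a mean FPKM under 1 throughout. Members of the 2-cell list and Ndufs6 were named beyond that rule after their values were seen.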

Additional observations from a re-analysis of the deposited data

Results flagged for a closer look

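In groups of 4 libraries the highest or lowest value was set against Dixon's critical value, for the medians of the 23 lists and for 88 named genes, and 4 lists and 11 genes had such a value. Chance gives about 1 in 20 groups of unselected, normally spread values. The 88 genes were picked by p or by direction in these same libraries, so that rate does not hold for them. In Fancf and Cxcl1 the flagged value stood out because the other high libraries were listed at 0. Among the high Kdm4a libraries, CROC+K+M replicate 1 had a median log2 deviation of 2.33 in trophectoderm and epithelial markers (the next library was at -0.33), 2.41 in oxidative phosphorylation genes (-0.40), 0.39 in heat shock and chaperone genes (0.01) and -0.19 in cell cycle and mitosis genes (0.04). The same library stood apart on the log2(FPKM + 1) scale in Tfap2a (2.48), Plac1 (7.71), Eif2b3 (6.07), U2af1 (7.07), Glrx (6.87) and Ddx58 (2.84). CROC+K replicate 3 did so in Cd52 (4.60) and Mcm5 (3.34), CROC+K replicate 2 in Cxcl1 (0.34) and FOC+K replicate 1 in Fancf (0.40) and Btg1 (3.12).

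In 13 lists the median difference from the low library was above 0 for every high library of 1 labelled group and below 0 for every one of another, and the difference between groups was not tested. The largest minus the smallest group median was 3.38 on the log2 scale for trophectoderm and epithelial markers (from -0.27 to 3.11), 2.42 for oxidative phosphorylation genes (from -0.16 to 2.27) and 1.5 for proteasome subunits (from -0.50 to 1). It was 0.88 for cumulus cell donor markers, 0.81 for antioxidant genes, 0.68 for ribosome biogenesis genes, 0.67 for inner cell mass markers and 0.47 for other H3K9 demethylases. It was 0.44 for cell cycle genes, 0.37 for p53 target genes, 0.36 for maternal oocyte transcripts, 0.31 for anti-apoptotic genes and 0.22 for H3K9 methyltransferases and heterochromatin proteins.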

How the results depend on the processing

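The count of genes past the threshold was 0 with all libraries in limma (1286 at an unadjusted p under 0.05), and also with the labelled group, the Rn45s split or the replicate block as a term, a pseudocount of 0.1, no filter, equal sums and small RNA genes kept. It was 1 with a filter of 5 FPKM in 3 libraries, 1 with quantile normalization, 555 with array weights (289 higher and 266 lower; FOC+K replicate 2 then had a weight of 7.97 and CROC+K+M replicate 1 of 0.26), and 0 to 22 when 1 library was left out. With the Kdm4a level as a continuous term it was 84; leaving out 1 library, an alternative chosen after seeing the data, gave 40 and 14 (FOC+K replicates 1 and 2), 10, 5 and 6 (CROC+K replicates 1 to 3), and 785 and 58 (CROC+K+M replicates 1 and 2). The cause of these shifts was not tested. Same-numbered libraries did not deviate together (correlations between -0.457 and 0.03). In groups of 2 libraries the deviations are exact opposites, so these few correlations are not independent and cannot exclude a pairing by number. With the replicate block 0 genes passed and the 2-cell median was 1.46.

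The 2-cell median kept its direction in all 18 alternatives, from 1.40 to 1.96. Genes higher by 1 or more within every labelled group numbered 82 with a pseudocount of 0.1 and 27 with equal sums, and lower ones 183 and 80, and 23 with a filter of 5 FPKM in 3 libraries. No value reversed its sign among the 88 genes that the naming rule takes, but these were picked by p or direction in the same libraries. Nelfa and Spz1 of the 2-cell list turned negative with equal sums (-0.25 and -0.13), where the median of all genes was -0.28. Of 414 medians of the other lists and of all genes tested, 48 moved by more than their spread. With 4 against 3 libraries and no counts, the depth behind a value is unknown, and values under about 1 FPKM are weak.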
